A study of Homo sapiens with 50 samples.

Results

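RAB proteins are small GTPases that give each membrane compartment of a cell its identity and steer vesicles between compartments. The measurements below concern the RAB genes among the genes for which the authors deposited a promoter-proximal pause site in DLD-1 cells, which come from a colorectal adenocarcinoma. A gene counted as a member when its entry in the authors' gene list matched a RefSeq protein-coding gene whose symbol is RAB followed by digits and at most 1 letter or digit. RAB-binding and GAP proteins were left out. This rule gave 31 members among 6481 entries, and RefSeq holds 63 protein-coding RAB genes in all.

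The series comprises 50 ChIP-seq libraries in 32 groups, by antibody, line, treatment and time. All lines express OsTIR1, a plant F-box protein that directs AID-tagged proteins to degradation when auxin (500 µM) is present. The lines were parental, SPT6-AID, PAF1-AID, SPT6-AID/PAF1-AID and SPT6-AID/NELF-C-AID, and cells received auxin over 0, 2 or 6 h or its vehicle over 2 h. The 2 lists used here belong to the whole series and hold no value for any library, so no antibody, line or treatment was compared and no replicate error can be given. Each gene has 1 pause site of 1 bp with no score. The depth behind a site is unknown, and the sources used here do not say how, or from which assay, the sites were called.

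In its active, GTP-bound form a RAB sits on its membrane through a lipid anchor and binds effectors such as tethers and motor adaptors. Guanine nucleotide exchange factors (GEFs) switch RABs on, and GTPase-activating proteins with a TBC domain switch them off. GDI then keeps the inactive protein in the cytosol. RNA polymerase II (Pol II) commonly halts a short way into a gene before productive elongation, and the distance from the gene's start to that point is what the lists give.

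The middle of the RAB pause distances coincided with that of the other genes. The pause distance, counted in bp from the listed 5' end along the strand, had a median of 52 bp over the 31 RAB entries and of 52 bp over the 6450 other entries. The lower and upper quartiles were 35 and 68.5 bp for RAB entries and 38 and 84 bp for the others. The RAB values ran from 18 bp for RAB18 and RAB27B to 285 bp for RAB26, with an SD between genes of 56.2 bp (n = 31), against 56.6 bp among the other entries. The other entries ran from 0 to 299 bp, so the list holds no site farther out. The spread is that between genes, since each gene has a single value.

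Most RAB sites fell in the band that holds most sites in the list. Of the 31 entries, 18 (58.1%, 95% Wilson interval 40.8 to 73.6%) had a distance of 20 to 60 bp, against 53.3% of the other entries. A further 6 lay at 61 to 100 bp. Only RAB18 and RAB27B lay under 20 bp (6.45%, against 7.09% of other entries). Distances above 100 bp belonged to 5 genes, RAB25, RAB22A, RAB11A, RAB20 and RAB26 (16.1%, interval 7.09 to 32.6%, against 18.7%). Each share of the other entries lies inside the interval of the RAB share, which covers counting error over genes only. Unnamed entries at RAB4B and RAB43, described below, also lay above 100 bp, and with them the count was 7 of 33.

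**Figure D1:**
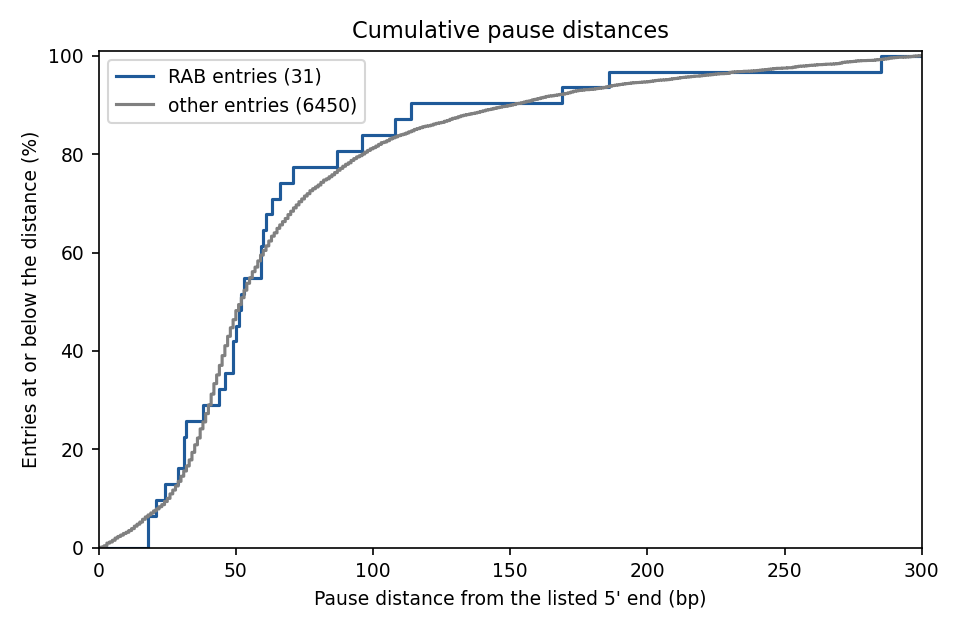
Cumulative share of entries (%, vertical axis) at or below each pause distance (bp from the listed 5' end, horizontal axis) for the 31 RAB entries (blue) and the 6450 other entries (grey). Both curves cross their middle at 52 bp, and the last RAB step is RAB26 at 285 bp.

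The sequences at 7 RAB starts show what these distances look like on the DNA. They are shown because both the listed start and the pause site of these genes lie inside a promoter window of RefSeq (build GRCh38.p14, 250 bases before to 50 after an annotated start). Windows were found for 25 of the 31 members, and for genes with several annotated starts the one nearest to the listed 5' end was used. Each line gives 40 bases before the listed start in lower case and the first 20 bases from the start in capitals, 5' to 3' on the gene's strand.

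RAB27B, chr18:54828437-54828496, plus strand: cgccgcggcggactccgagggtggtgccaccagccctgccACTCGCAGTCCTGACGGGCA
RAB19, chr7:140404018-140404077, plus strand: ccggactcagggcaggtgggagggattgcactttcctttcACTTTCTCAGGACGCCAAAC
RAB29, chr1:205775443-205775502, minus strand: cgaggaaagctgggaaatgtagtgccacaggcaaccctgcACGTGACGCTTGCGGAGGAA
RAB8B, chr15:63189566-63189625, plus strand: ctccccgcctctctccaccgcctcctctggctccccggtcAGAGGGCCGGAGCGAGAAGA
RAB5C, chr17:42154970-42155029, minus strand: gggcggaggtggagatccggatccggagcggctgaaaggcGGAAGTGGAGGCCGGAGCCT
RAB3B, chr1:51990681-51990740, minus strand: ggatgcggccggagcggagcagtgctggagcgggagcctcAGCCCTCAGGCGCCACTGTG
RAB6A, chr11:73761055-73761114, minus strand: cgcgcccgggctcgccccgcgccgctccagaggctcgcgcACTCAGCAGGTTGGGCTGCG

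Most RAB starts that could be read carried the CA pair of an initiator, and so did most of the other entries. The initiator is the core promoter element at which Pol II begins transcription. Among the 17 members whose listed start lies inside a window, the base before the start and the first base read CA in 12 (70.6%), against 51.9% of 3809 other entries with such a window. A pyrimidine followed by a purine, the broader form, stood there in 14 (82.4%, against 86.8%). Neither difference was tested, and the other members could not be read. The exceptions were RAB13 with TC, RAB28 with GA and RAB8A with GG. In 6 of the 7 genes shown the first capital is A, and in RAB5C it is G.

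The same 7 genes can be lined up on the pause site. Each line ends on the listed pause base, in capitals, after the 20 bases before it.

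RAB27B, 18 bp: ccactcgcagtcctgacgggC
RAB19, 24 bp: tctcaggacgccaaacccgaC
RAB29, 29 bp: ttgcggaggaaggggagagaG
RAB8B, 32 bp: cgagaagatggcgaagacgtA
RAB5C, 44 bp: caccgccggcggggagagaaG
RAB3B, 46 bp: tgaccggaccagaccatcccG
RAB6A, 49 bp: gcagctgtggaagctcaggcG

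The pause base was G in 4 of these genes, C in RAB27B and RAB19 and A in RAB8B. Among 1372 other entries with their site inside a window, it was G in 49.5%, A in 20.8%, C in 20.6% and T in 9.04%. The stretch from start to pause site was rich in G and C, with a median of 68.1% over the 7 genes (56.0% in RAB19 to 73.3% in RAB5C) and of 66.7% over the other entries. These figures describe sites close to their start only, because the window ends 50 bases after it.

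Between the endoplasmic reticulum (ER) and the Golgi, RAB1 and RAB2 proteins carry cargo forward and tether vesicles, and RAB18 acts at the ER and on lipid droplets. Of the 5 genes assigned to this step, 2 were listed. RAB18 (ENSG00000099246.18, chromosome 10, plus strand, 27504341 to 27542239 on hg38) had its site at 27504359, a distance of 18 bp that only 6.28% of other entries undercut. RAB2A stood at 63 bp. Neither RAB1A nor RAB1B nor RAB2B was in the list.

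At the Golgi, RAB6A drives retrograde traffic and exit of carriers, RAB33B links the Golgi to autophagy factors and RAB30 and RAB19 are Golgi-associated. These 4 of 9 genes were listed. RAB19 stood at 24 bp, RAB6A at 49 bp, RAB33B at 51 bp and RAB30 at 96 bp, so 3 of them lay within 20 to 60 bp. RAB6A and RAB33B sit on the middle of the distribution, and RAB30 lay farther than 79.67% of other entries.

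The step with the most listed genes was secretion and exocytosis, with 8 of 12. RAB8A, RAB8B, RAB10 and RAB13 deliver membrane to the plasma membrane and to epithelial junctions, RAB3B and RAB26 belong to regulated secretion, and RAB27A and RAB27B dock secretory granules and lysosome-related organelles. Their distances had a median of 54.5 bp. RAB27B stood at 18 bp, RAB8B at 32, RAB3B at 46, RAB13 at 50, RAB8A at 59, RAB10 at 60 and RAB27A at 66 bp.

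RAB26 stood apart from these 7. Its entry (ENSG00000167964.13, chromosome 16, plus strand, 2148645 to 2154165, 5521 bp long) had its site at 2148930, 285 bp downstream, farther than in 99.19% of other entries. No distance in the list exceeds 299 bp, so this site lies near the upper end of what the list holds. Its listed start lay 501 bp downstream of the outermost RefSeq start.

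Early endosomes receive endocytosed cargo under the control of RAB5 proteins, with RAB21 in integrin traffic, RAB22A in sorting, RAB17 in polarised epithelial cells and RAB20 on endosomes and phagosomes. Of 8 such genes, 6 were listed, with a median of 51.5 bp. RAB21 (ENSG00000080371.6, chromosome 12, plus strand, 71754913 to 71800286) had its site at 71754934, a distance of 21 bp. RAB5A stood at 31 bp, RAB5C at 44 and RAB17 at 59 bp. RAB22A at 114 bp and RAB20 at 186 bp lay above the others. The RAB20 entry (ENSG00000139832.5, chromosome 13, minus strand, 110523066 to 110561692) had its site at 110561506, farther than in 93.67% of other entries.

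Recycling endosomes return receptors and membrane to the cell surface through RAB4 and RAB11 proteins, and RAB25 is the epithelial member of the RAB11 group. Here 6 of 9 genes were listed and the median was 60 bp. RAB11B stood at 31 bp, RAB4A at 38, RAB15 at 49 and RAB12 at 71 bp, with RAB25 at 108 bp and RAB11A at 169 bp. Above 100 bp lay 2 of these 6 genes and 2 of the 6 listed early endosome genes, against 18.7% of other entries. Steps of 1 to 8 listed genes are too small to rank by such counts or by their medians. The medians ran from 40.5 bp (ER, 2 genes) to 61 bp (1 gene).

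Later stations were represented by fewer genes. RAB7A directs late endosomes and lysosomes and stood at 53 bp, RAB9A returns receptors to the trans-Golgi network and stood at 87 bp, and RAB29, which recruits the kinase LRRK2 to membranes, stood at 29 bp. They were 3 of the 8 genes of the late endosome, lysosome and autophagy step. RAB28, a ciliary RAB, stood at 52 bp as the listed gene among 3 of its step. RAB40C, which carries a SOCS box that joins it to a ubiquitin ligase, stood at 61 bp, and RAB40A and RAB40B were not listed.

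**Figure D2:**
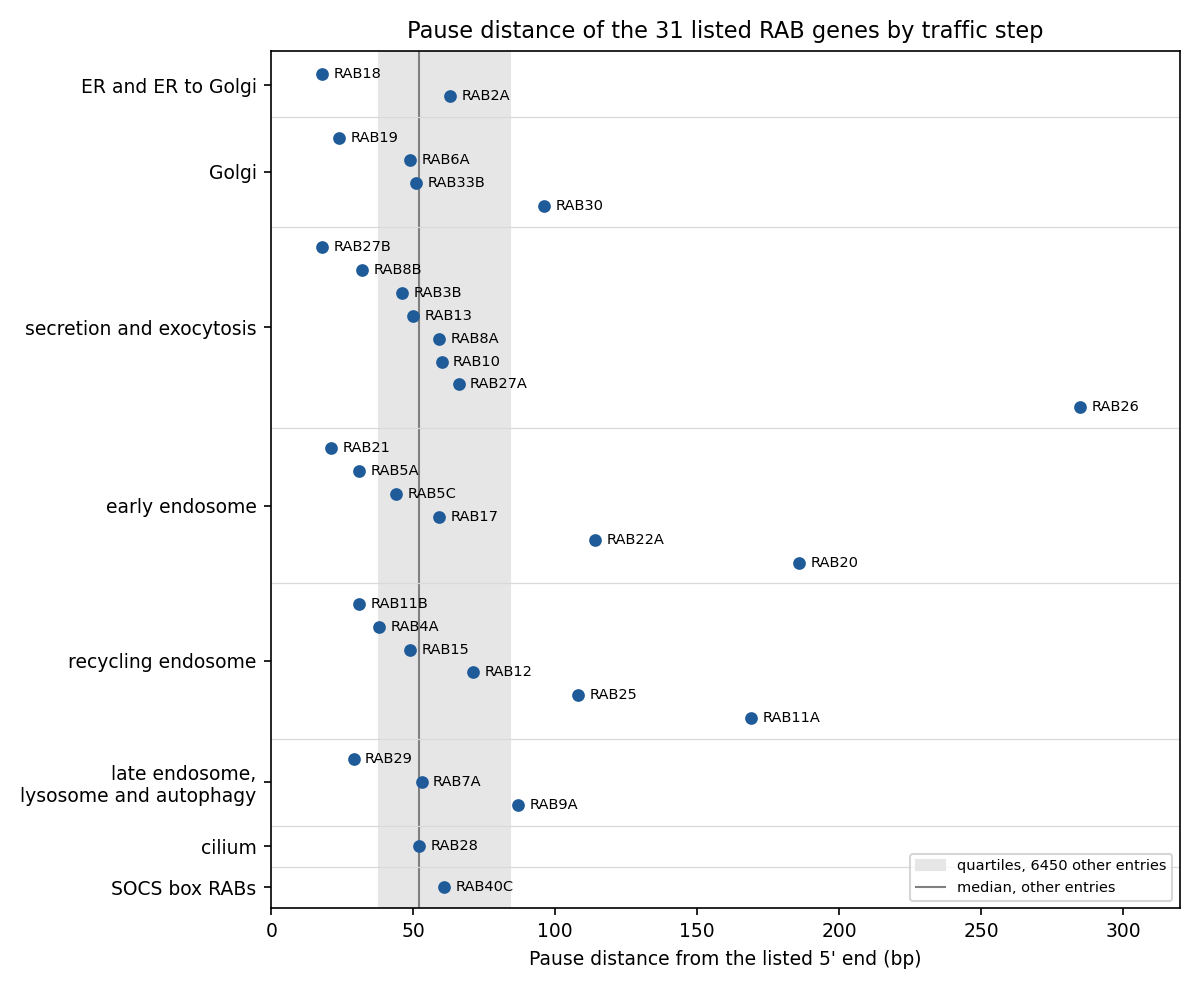
Pause distance (bp from the listed 5' end, horizontal axis) of each of the 31 RAB genes, grouped by traffic step (vertical axis); the grey band spans the quartiles of the 6450 other entries (38 to 84 bp) and the line marks their median (52 bp). The points to the right of 100 bp are RAB25, RAB22A, RAB11A, RAB20 and RAB26.

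A larger share of RAB genes than of protein-coding genes at large had an entry. Of 63 RAB genes 31 were listed (49.2%, Wilson interval 37.3 to 61.2%), against 29.1% of all 20037 protein-coding genes. The shortest entry measures 3005 bp, and among genes of that length or more it was 31 of 61 (50.8%), against 32.2%. Of these 61, 40 had no coding neighbour within 1000 bp, and 26 of the 40 were listed (65.0%, interval 49.5 to 77.9%), against 42.0%. Of the 21 with such a neighbour, 5 were listed (23.8%, interval 10.6 to 45.1%), against 16.8%. The members were chosen from the list, so these shares are a description, and the part of neighbours in them was not tested.

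Of the 32 RAB genes without a named entry, 18 (56.2%, Wilson interval 39.3 to 71.8%) had a coding neighbour within 1000 bp. Such neighbours were common at large. Of 18094 protein-coding genes of 3005 bp or more, 7068 had one, and 1186 of these 7068 were listed (16.8%), against 5822 of all 18094 (32.2%). The 7068 and the 18094 include listed genes, so they give no direct match for the 56.2%. Among the 18 were RAB1A (beside CEP68), RAB1B (CNIH2 and KLC2), RAB2B (TOX4), RAB5B (SUOX), RAB14 (CNTRL and GSN) and RAB35 (BICDL1). RAB24 and RAB41, also among the 18, were shorter than 3005 bp, a length that the counts at large leave out. The only neighbour of RAB43 was its own readthrough gene, ISY1-RAB43. The other 14 had no such neighbour. They were RAB3C, RAB6C, RAB6D, RAB7B, RAB31, RAB32, RAB34, RAB38, RAB39A, RAB39B, RAB40A, RAB40B, RAB42 and RAB44. Absence from the list does not show that a gene lacks a pause site or is silent.

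Entries without a name covered 2 more RAB genes. The entry ENSG00000167578.18 (chromosome 19, plus strand, 40778271 to 40796942) ends on the last base of RAB4B, but a readthrough transcript with MIA ends beside it, and its pause distance was 158 bp. This entry starts nearer to the RefSeq start of RAB4B (40778247) than to that of the readthrough transcript (40775537). The entry ENSG00000172780.17 (chromosome 3, minus strand, 129087572 to 129121618) spans 98.5% of RAB43 and ends on the same base as the ISY1 readthrough gene, and its distance was 176 bp. Both lay above 100 bp. With them counted, 7 of 33 RAB entries exceeded 100 bp and the median was 53 bp.

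**Figure D3:**
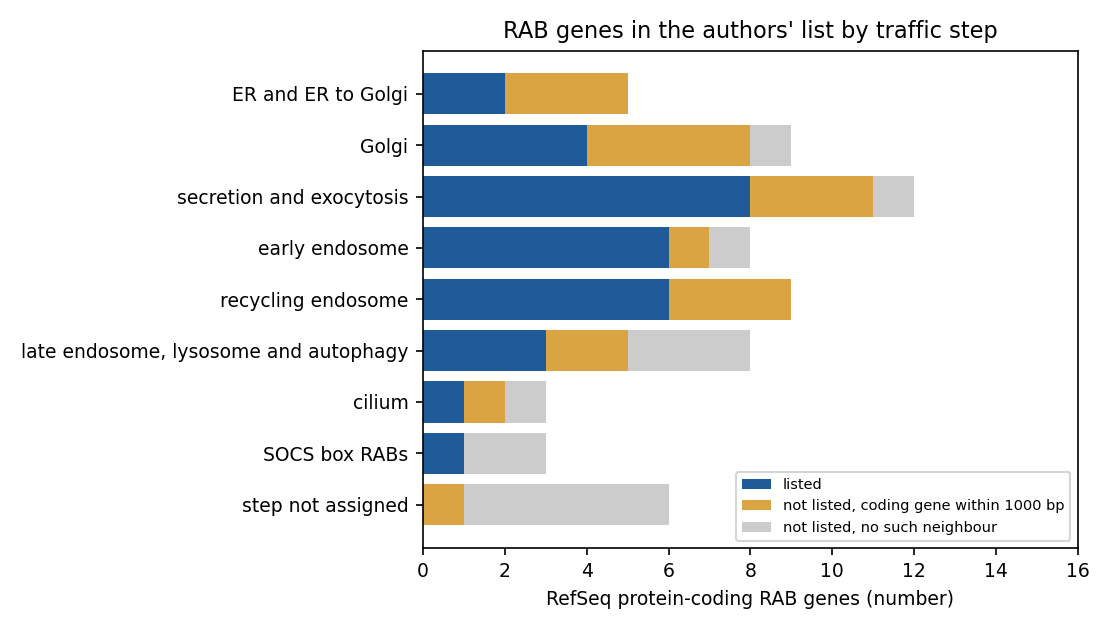
Number of RefSeq protein-coding RAB genes (horizontal axis) in each traffic step (vertical axis), divided into listed genes (blue), genes not listed with a coding gene within 1000 bp (ochre) and genes not listed without such a neighbour (grey). Secretion and exocytosis has the most listed genes, 8 of 12, and none of the 6 genes without an assigned step was listed. RAB4B and RAB43, covered by unnamed entries, are drawn as not listed.

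The labelled epithelial origin was checked against marker genes, beside the 29.1% of all protein-coding genes that were listed. Of 12 epithelial markers 6 were listed (50%), EPCAM (36 bp), CDH1, CDX2, KRT18, KRT19 and KRT20, and the other 6 were not. Of the other markers, 2 of 10 for neurons (TUBB3 and MAP2), 1 of 10 for blood (CORO1A), 1 of 7 for melanocytes (MITF) and 0 of 8 for fibroblasts were listed. RAB17 and RAB25, named above for their place in epithelia, were members, but they come from no list set beforehand and add nothing to this check. A list of pause sites shows only which genes were retained, not how strongly they are transcribed.

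Pause distances of close paralogues could be compared in 6 pairs of named entries. Of 16 paralogue groups, 4 had at least 2 listed genes, 9 had 1 and 3 had none (RAB1, RAB32 with RAB38, and RAB39). From the listed starts, the 6 pairs with both genes listed differed by 13 to 138 bp, with a median of 54.5 bp, while all 465 pairs that the 31 entries can form differed by a median of 30 bp. Of the 6 pairs, 3 come from the RAB11 group and share genes. With the unnamed RAB4B entry (158 bp) set beside RAB4A (38 bp) there were 7 pairs, with a median difference of 61 bp.

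Measured from the listed starts, the RAB5 genes were the closest pair. RAB5A (ENSG00000144566.11, chromosome 3, plus strand, 19947379 to 19985175) had its site at 19947410, at 31 bp. RAB5C (ENSG00000108774.15, chromosome 17, minus strand, 42124979 to 42154989) had its site at 42154945, at 44 bp. Both lay below the median of the list. The order of the pairs depended on the start used: the listed start of RAB5A lies 282 bp inside the RefSeq gene, and from the RefSeq starts RAB5A stood at 313 bp and RAB5C at 44 bp, a difference of 269 bp. That was the widest of the 5 pairs whose listed starts lie within 300 bp of RefSeq's. The RAB27 genes differed by 48 bp: RAB27A (ENSG00000069974.16, chromosome 15, minus strand, 55202966 to 55290277) had its site at 55290211, at 66 bp, and RAB27B (ENSG00000041353.10, chromosome 18, plus strand, 54828477 to 54895516) had its site at 54828495, at 18 bp.

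The widest separation from the listed starts was in the RAB11 group. RAB11A (ENSG00000103769.10, chromosome 15, plus strand, 65869491 to 65891989) had its site at 65869660, at 169 bp. RAB11B (ENSG00000185236.12, chromosome 19, plus strand, 8390411 to 8404434) had its site at 8390442, at 31 bp. RAB25 (ENSG00000132698.15, chromosome 1, plus strand, 156061163 to 156070504) lay between them, with its site at 156061271 and a distance of 108 bp. RAB11A and RAB25 start on or within 3 bp of their RefSeq start, and the RAB11B entry starts 51 bp downstream of it, so that from the RefSeq starts the distances were 169, 82 and 111 bp in the order RAB11A, RAB11B and RAB25. RAB11A and RAB11B then differed by 87 bp, less than the RAB5 pair did.

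**Figure D4:**
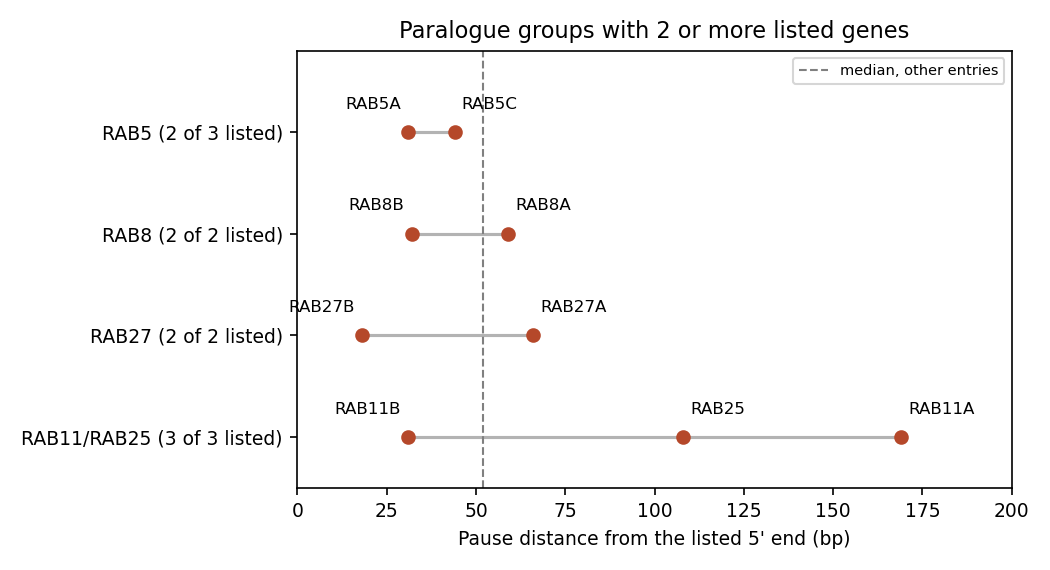
Pause distance (bp from the listed 5' end, horizontal axis) of the listed genes in the 4 paralogue groups (rows) with at least 2 of them; grey lines join the genes of a group and the dashed line marks the median of the other entries, 52 bp. The points of the RAB5 group lie 13 bp apart, and RAB11A and RAB11B lie 138 bp apart. The unnamed RAB4B entry is not drawn.

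The RAB8 genes, 27 bp apart, share a stretch of sequence near their starts from which both sites can be measured. RAB8A (ENSG00000167461.12, chromosome 19, plus strand, 16111889 to 16134234) had its site at 16111948, at 59 bp. RAB8B (ENSG00000166128.13, chromosome 15, plus strand, 63189606 to 63267776) had its site at 63189638, at 32 bp. Both listed starts are RefSeq starts, and in both genes the longest run of bases shared between start and window end opens with ATG. The 30 bases from that ATG are printed with the shared run of 11 bases in capitals. RAB8A was added to the printed genes as the partner of RAB8B after its values were seen.

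RAB8A, chr19:16111902-16111931: ATGGCGAAGACctacgattacctgttcaag
RAB8B, chr15:63189625-63189654: ATGGCGAAGACgtacgattatctcttcaag

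Of these 30 bases 27 were identical. The ATG began 13 bp from the listed start in RAB8A and 19 bp in RAB8B. The pause site lay 46 bp past the first base of the ATG in RAB8A and 13 bp past it in RAB8B, so both sites lay downstream of the ATG. The RAB8B site falls within the 30 printed bases, after the run in capitals, and the RAB8A site lies beyond them. Exons and coding starts were not read from an annotation here.

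Many listed starts lay away from the outermost RefSeq start. The listed 5' end was the outermost RefSeq base in 9 of 31 (29.0%, against 25.8% of other named entries), and within 10 bp of it in 12 (38.7%, against 39.9%). It lay more than 300 bp downstream in 7 (22.6%, against 20.3%). These were RAB10, RAB13, RAB26, RAB27A, RAB27B, RAB33B and RAB40C, with RAB27B 110620 bp and RAB27A 28846 bp inside the RefSeq gene. The starts listed for RAB27B and RAB13 were nevertheless annotated starts of shorter transcripts, and with all annotated starts counted 11 of 25 members with a window began on one (44.0%, against 31.3% of 4784 other entries). RAB17 was the sole member whose site lay outside its RefSeq gene, since its listed start lay upstream of the gene, at -355 bp.

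The 31 genes were of ordinary length. Listed lengths ran from 4690 bp for RAB13 to 116604 bp for RAB28 with a median of 37797 bp, against 35476 bp for other entries. The 15 shorter RAB genes had a median pause distance of 51 bp and the 16 longer ones of 52.5 bp. On the plus strand lay 20 of the 31 (64.5%, against 51.7% of other entries), with a median distance of 56 bp, and the 11 on the minus strand had one of 50 bp.

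Transcription units on the other strand lay close to several RAB starts. A RefSeq start on the opposite strand lay within 1000 bp upstream of the listed start in 8 of 31 RAB genes (25.8%, Wilson interval 13.7 to 43.2%), against 16.1% of other named entries, counted among the 27305 genes with a promoter window. They were RAB17 (RAB17-DT, 71 bp away), RAB6A (84 bp), RAB28 (122 bp), RAB33B (RAB33B-AS1, 134 bp), RAB8B (175 bp), RAB30 (RAB30-DT, 267 bp), RAB5A (the coding gene EFHB, 396 bp) and RAB10 (445 bp). A second RefSeq gene covered the pause site itself in 5 (16.1%, against 12.8%). It was an antisense or other long noncoding RNA for RAB5C, RAB11B and RAB19, the readthrough gene CHURC1-FNTB for RAB15 and a pseudogene for RAB40C. Whether the site calls used strand is not given here.

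Most RAB promoter windows held a GC box and none held a TATA box, at shares close to those of other entries. The 23 members with an annotated start within 300 bp of the listed start were compared with 4381 other entries chosen the same way, on both strands. GGGCGG, the GC box that SP-family factors bind, occurred in 19 (82.6%), against 79.3% of the other entries and 45.0% of all 35116 windows. CCAAT occurred in 6 (26.1%, against 37.0% and 34.6%), and the TATA box TATAAA in 0 (against 3.99% and 11.5%). CCGGAAG, an ETS factor motif, occurred in 5 (21.7%, against 20% and 10.3%), TGACGTCA (CRE) in RAB25 alone (4.3%, against 4.02% and 1.85%) and GCGCATGC (part of the NRF1 motif) in RAB18 alone (4.3%, against 6.16% and 3.05%). No match says only that these letters are not in this window.

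E-boxes with the core CACGTG, which the lysosomal regulators TFEB and TFE3 and also MYC recognise, were present in 4 windows (17.4%, against 10.5% of other entries and 7.26% of all windows). The longer form TCACGTGA occurred in RAB21 and RAB5A (8.7%, against 2.15% and 0.98%). RAB5C and RAB22A, the other early endosome genes with a window searched, had neither form. The same held for RAB7A and RAB9A of the late endosome, lysosome and autophagy step. The differences in share were not tested. The 4 matches are printed with the motif in capitals and 20 bases on either side, to show how their flanks and their place relative to the start differ.

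RAB21, chr12:71754822-71754869, plus strand: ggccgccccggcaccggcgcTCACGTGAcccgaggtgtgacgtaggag
RAB5A, chr3:19946955-19947002, plus strand: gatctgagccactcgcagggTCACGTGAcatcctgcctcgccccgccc
RAB4A, chr1:229270989-229271034, plus strand: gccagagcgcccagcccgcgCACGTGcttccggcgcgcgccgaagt
RAB29, chr1:205775438-205775483, minus strand: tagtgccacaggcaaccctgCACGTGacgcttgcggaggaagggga

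In RAB21 the motif began at -71 bp from the listed start and in RAB4A at -130 bp. In RAB5A it began at -404 bp, since the listed start of that gene lies 282 bp downstream of the annotated one. In RAB29 it began at -1 bp, so that the first listed base is the A of CACGTG. RAB29 is the member that recruits LRRK2, and its pause site followed 29 bp later. A match describes letters and not a bound site, and TCACGTGA contains CACGTG.

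RAB22A, with a pause distance of 114 bp, had the most GC boxes. Its window held 11 copies of GGGCGG on either strand, whereas RAB40C (61 bp) held 8, the median member 2 and the median other entry 2. Of the other members above 100 bp with a window searched, RAB11A held 3 and RAB25 held 0. At least 11 copies occurred in 7 of the 4381 other windows (0.16%). Of the 11, 8 were on the gene's strand at an exact spacing of 20 bp, from -238 to -98 bp, and the sequence between them is a tandem repeat. It is printed from the first of these copies to the last, with each GGGCGG in capitals.

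RAB22A, chr20:58309477-58309622, plus strand: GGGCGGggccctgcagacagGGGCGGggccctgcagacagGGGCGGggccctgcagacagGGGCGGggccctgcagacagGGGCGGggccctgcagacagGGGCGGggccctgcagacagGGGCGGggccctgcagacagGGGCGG

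**Figure D5:**
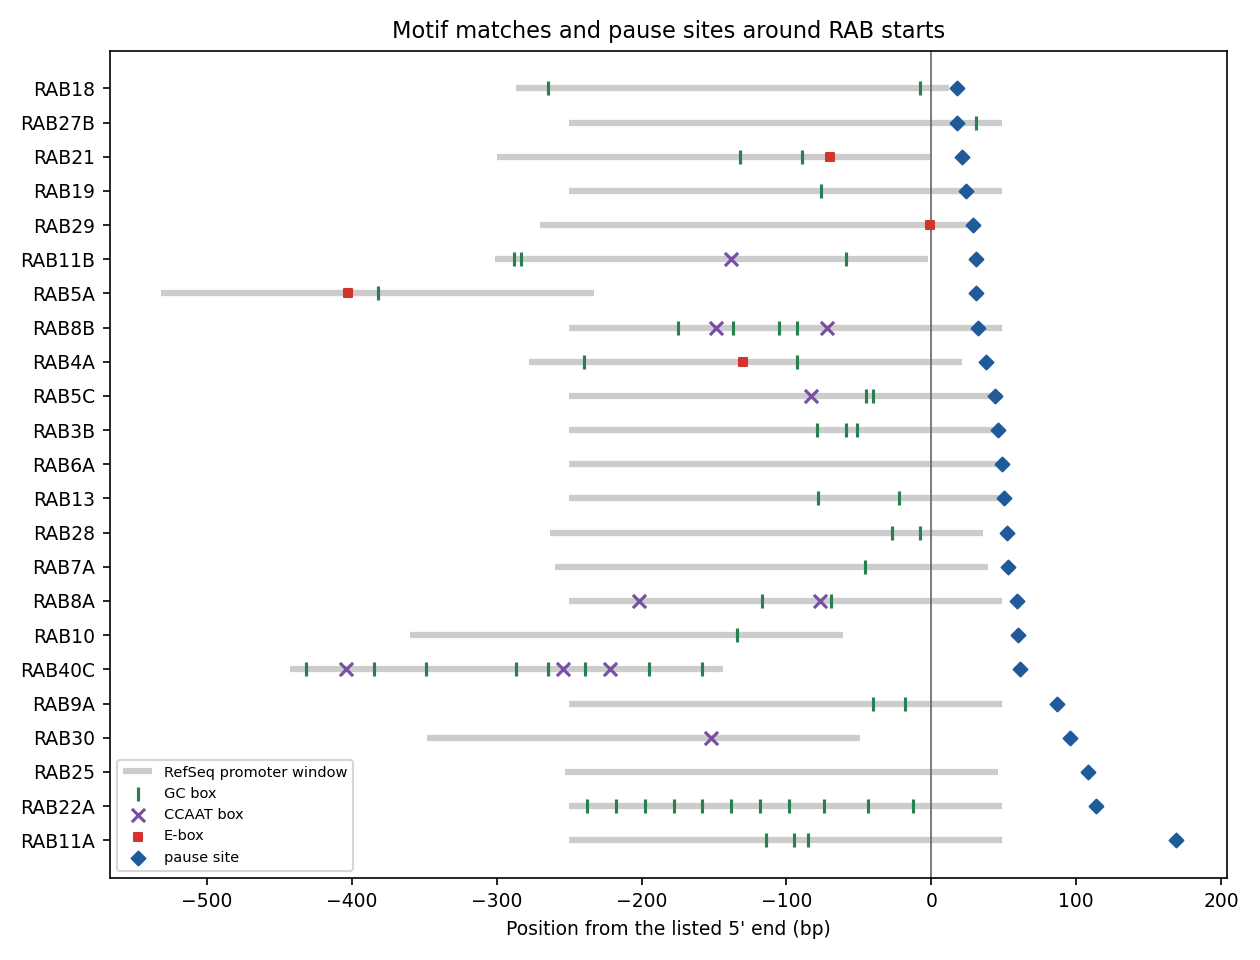
Position from the listed 5' end (bp, horizontal axis) of GC boxes (green ticks), CCAAT boxes (purple crosses), E-boxes (red squares) and pause sites (blue diamonds) in 23 RAB genes (rows, in order of pause distance); grey bars are the RefSeq promoter windows searched. RAB22A shows evenly spaced GC boxes from -238 bp, and the E-box of RAB29 lies on the start.

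Genes of the machinery that RABs depend on were also well represented. Of 135 such genes 77 were listed (57.0%, against 29.1% of all protein-coding genes). Of the 34 TBC-domain GAP genes 23 were listed (67.6%), with a median distance of 50 bp, from RABGAP1L at 3 bp through EVI5L at 50 bp to TBC1D15, a RAB7 GAP, at 225 bp. Of 51 effector genes 32 were listed (62.7%), with a median of 55 bp, from OCRL, an inositol phosphatase, at 6 bp through RUFY1 at 54 bp to RAB11FIP2, a RAB11 effector, at 287 bp.

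Of 42 GEF genes 17 were listed (40.5%), with a median of 52 bp. They ran from DENND3 at 3 bp through TRAPPC3, a TRAPP complex subunit, at 52 bp to RIN3, a RAB5 GEF, at 160 bp. The list of GDI, escort and prenylation genes had 5 of 8 listed and a median of 67 bp. GDI2, which extracts inactive RABs from membranes, stood at 43 bp and CHM, the RAB escort protein gene, at 67 bp. Both subunits of the RAB geranylgeranyl transferase lay beyond 100 bp, RABGGTA at 147 bp and RABGGTB at 189 bp. Medians of all 4 lists lay within the quartiles of the other entries, 38 to 84 bp.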

How the data were processed

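The authors deposited both lists as intervals in bp without a header. Their build is hg38, and the submitters' processing notes also name mm10 and, without saying what each did, deepTools 3.1.1, cutadapt 1.14 and Bowtie2 2.2.6. Positions were converted to count from 1, and the lists were joined by Ensembl identifier. An entry took the name of a RefSeq gene (GRCh38.p14) if that gene alone ended no more than 50 bp from it and spanned 50% of it or more, which named 5822 of 6481. As an alternative, names required 80% overlap in both directions. Naming and distances were checked on simulated entries. Because members and gene lists were chosen with earlier results of these data known, and each gene has 1 value, no test was made. Intervals, where given, are 95% Wilson intervals over genes. RAB6D was on no list of traffic steps and was counted without a step. All RAB entries are named. Coordinates are given for listed paralogue pairs, the 3 smallest and 3 largest distances and the unnamed entries, and of other lists mainly the smallest, middle and largest distances are named. Motifs, promoter measures and printed sequences were chosen after the distances were seen. The software was matplotlib 3.10.9, pandas 2.3.3, SciPy 1.17.1, NumPy 2.4.6 and Python 3.11.15.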

Additional observations from a re-analysis of the deposited data

How the results depend on the processing

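Of 33 values recomputed for 6 results under alternative settings, 29 stayed within the binomial interval of the reported value (for the paralogue difference, within its range over pairs) or, for counts, within 1.5 times it. The other 4 moved. With distances from the RefSeq start, for the 23 RAB entries within 300 bp of it, the median was 67 bp (69 bp in other genes) and the share at 20 to 60 bp 34.8% (38.1%), a shift seen in RAB and other genes alike. With listed starts within 10 bp of RefSeq's, 3 of 12 RAB entries exceeded 100 bp, against 376 of 2313 other entries. The count fell with the number of entries. As a share it was above the 16.1% of all RAB entries, while that of the other entries was below their 18.7%. Among genes without a coding neighbour 65.0% of RAB genes were listed. The paralogue difference ran from 44 to 69 bp with 2 to 7 pairs. The unnamed RAB4B and RAB43 entries were added after seeing the data. No paired analysis was possible because the lists hold no value for any library.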

Other observations

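Small GTPases related to the RABs were also in the list. Of 9 looked up, 6 were listed, with a median pause distance of 50 bp. RAN, which drives nuclear transport, stood at 6 bp. IFT27 and IFT22, RAB-like parts of the intraflagellar transport machinery of cilia, stood at 16 and 80 bp, and the pair RABL2B and RABL2A at 42 and 58 bp. RASEF, a RAB with an EF-hand domain, stood at 212 bp.

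The nearest listed neighbour of 3 of the 31 RAB genes (9.68%) was a gene of the GEF, GAP or effector lists: TBC1D15 beside RAB21 (gap 39472 bp), MLPH, which encodes the RAB27A effector melanophilin, beside RAB17 (19003 bp), and DENND4A beside RAB11A (77197 bp). Among 5714 other named entries outside these lists the share was 1.26% (72 entries). The pattern was noticed in the data and was not tested.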
